A study of Danio rerio with 9 samples.

Results

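The genes described here are 5 transcription factor genes of the ventral neural tube: nkx2.2a, nkx2.2b, nkx2.9, olig2 and nkx6.1. They were picked by gene symbol as factors that depend on Hedgehog signalling. All 5 had a row among the 22337 genes of the deposited tables, and all 5 were among the 21293 genes tested. RNA had been sequenced from 9 zebrafish (Danio rerio) embryos, 1 embryo per library. They were about 25 hours old and had been kept at 29 °C. The affected embryos were 5 with coloboma, an eye in which the choroid fissure has not closed (numbers 3, 4, 5, 6 and 7). The embryos set against them were 4 labelled normal (numbers 3, 4, 6 and 7). Every parent fish carried a single copy of the allele zic2aGBT133 and a single copy of zic2bUW1127, and no embryo received a treatment. The columns of the normal embryos carry the tag WT, whose meaning the labels do not explain, and no genotype is given for an embryo. A normal embryo may thus itself carry either allele, and each group may hold a mixture of genotypes. Each library was a whole embryo, with no region of the neural tube dissected.

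In the vertebrate neural tube, Sonic hedgehog made by the notochord and floor plate spreads dorsally and sets up bands of progenitor cells, each marked by a combination of transcription factors. Nkx2.2 and Nkx2.9 are homeodomain factors of the most ventral band beside the floor plate, which gives V3 interneurons in the spinal cord. Olig2, a basic helix-loop-helix factor, marks the band above it, which makes motor neurons and later oligodendrocyte precursors. Nkx6.1 is a homeodomain factor that spans both bands and the one above. Several of these genes are also used elsewhere: nkx2.2a, nkx2.2b, nkx2.9 and olig2 in the ventral forebrain, and nkx2.2a and nkx6.1 in the pancreas.

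Total counts were 20461180 to 59233104 in coloboma embryos and 40951722 to 54681474 in normal embryos, with coloboma embryo 5 the shallowest. The 5 genes had 178 to 1774 counts in a coloboma embryo and 286 to 2375 in a normal embryo. Levels of the targeted genes did not pass the test: zic2a averaged 51.7 ± 6.62 CPM in coloboma embryos and 47.8 ± 4.86 CPM in normal embryos, and zic2b 47.7 ± 1.21 CPM and 48.7 ± 4.15 CPM in the same order (SD, n = 5 and 4). Intact and disrupted transcripts cannot be told apart in such gene totals, so these levels check no label. Coloboma embryo 3 stood apart from the rest in lens genes. With the normal mean set to 0, its mean log2 level of 12 lens genes was -3.93, while coloboma embryos 4 to 7 had 0.13 to 0.55. For 18 forebrain genes it was also the lowest, at -1.12, with coloboma embryo 7 next at -0.70. For 15 retinal progenitor genes it had -1.27, while coloboma embryos 4 to 7 had -0.39 to 0.06.

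None of the 5 genes passed an adjusted p of 0.05 between coloboma and normal embryos, where 44 of all tested genes did (0.207%, with 0.0798% higher and 0.127% lower; edgeR quasi-likelihood test with Benjamini-Hochberg adjustment over all genes). At an unadjusted p under 0.05 there was 1 of the 5, olig2, against 11.7% of all tested genes (4.9% lower and 6.78% higher). None of the 5 passed with DESeq2 either, which called 577 genes. The log2 change was negative for each of the 5, with a median of -0.15, against a median of 0.00075 over all tested genes and 49.9% of them below 0. In olig2 every coloboma embryo was below every normal embryo, while 4.43% of all tested genes had groups that did not overlap (2.16% with coloboma lower). In the other 4 genes the groups overlapped. Because whole embryos were sequenced, fewer cells of a type and less RNA per cell cannot be told apart in any of these values.

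**Figure D1:**
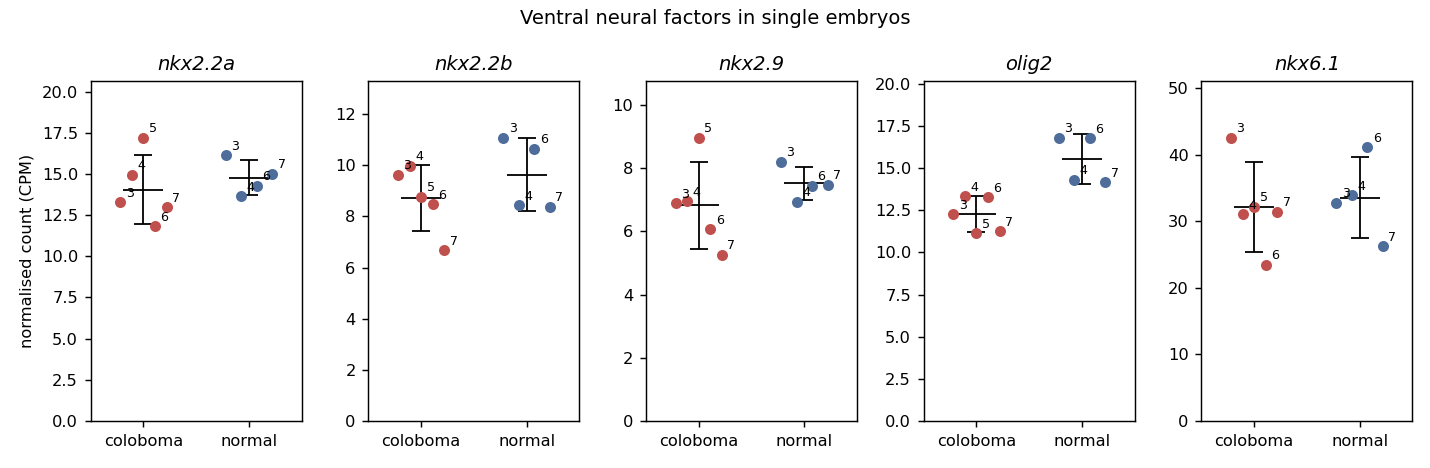
Normalised counts (CPM, counts scaled to library size and TMM factors; y axis from 0, scale set for each gene) of the 5 genes in single embryos, coloboma left and normal right, with the embryo number beside each point and bars for the mean ± SD. The olig2 points do not overlap, at 11.1 to 13.4 CPM in coloboma and 14.2 to 16.8 CPM in normal embryos. In the other panels they do.

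The gene olig2, the motor neuron progenitor factor, had 12.3, 13.4, 11.1, 13.3 and 11.2 CPM in coloboma embryos 3, 4, 5, 6 and 7, against 16.8, 14.3, 16.8 and 14.2 CPM in normal embryos 3, 4, 6 and 7. The highest coloboma embryo, number 4, was thus below the lowest normal embryo, number 7. The means were 12.3 ± 1.06 CPM in coloboma embryos and 15.5 ± 1.48 CPM in normal embryos (SD, n = 5 and 4). This is a log2 change of -0.34 ± 0.10 (SE; 95% interval -0.55 to -0.12), a percent change of -20.9. The edgeR p was 0.00542 unadjusted, at rank 574 of the tested genes, and 0.201 after adjustment. The two-sided exact permutation p of its log2 CPM was 0.00794, the smallest that splits of 9 embryos into 5 and 4 can give. Over all tested genes, 2.16% had every coloboma embryo below every normal embryo, and 2.27% had every coloboma embryo above. In TPM, olig2 had 9.37 to 11.9 in coloboma embryos and 12.4 to 16.4 in normal embryos, again without overlap. The median log2 TPM change of all tested genes was -0.08.

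In the RefSeq annotation of assembly GRCz12tu, used for gene order only, olig2 lies on chromosome 9, as does zic2a. The other 4 genes lie elsewhere: nkx2.2a and nkx2.9 on chromosome 17, nkx2.2b on 20 and nkx6.1 on 21. There are 29 protein-coding genes between zic2a and olig2, among the 915 of that chromosome. Of the 18 of them that were tested, 1 fell, the ankyrin repeat gene ankrd44 (15.9 ± 1.93 CPM in coloboma and 32.3 ± 1.82 CPM in normal embryos; SD, n = 5 and 4; edgeR adjusted p = 0.00152). None rose, and the median log2 change of the 18 was -0.08. On the whole chromosome, 18 of 554 tested genes matched by symbol passed the threshold (3.25%), 9 of them lower in coloboma. Of the 554, 7.94% had every coloboma embryo below every normal embryo. Over all tested genes, matched or not, these shares were 0.207% and 2.16%. Of the 13582 tested genes placed on any chromosome by symbol, 34 passed. The part of position on this chromosome in the olig2 values was not tested. For olig1, the neighbour of olig2 in the annotation, no row was matched by symbol or synonym, so it was not analysed here.

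The nkx2.2 pair encodes homeodomain repressors of the most ventral progenitors. For nkx2.2a the levels were 13.3, 14.9, 17.2, 11.8 and 13.0 CPM in coloboma embryos 3, 4, 5, 6 and 7, against 16.1, 13.7, 14.3 and 15.02 CPM in normal embryos 3, 4, 6 and 7. Coloboma embryo 5 was the highest of all 9, and coloboma embryos 3, 6 and 7 were below the lowest normal embryo. The log2 change was -0.078 ± 0.11 (SE; 95% interval -0.33 to 0.17; edgeR adjusted p = 0.829), and an exact permutation of its log2 CPM gave a two-sided p of 0.476. For nkx2.2b the levels were 9.63, 9.99, 8.77, 8.48 and 6.67 CPM in coloboma embryos, against 11.1, 8.44, 10.7 and 8.38 CPM in normal embryos, in the same order of embryo numbers. Here coloboma embryo 7 was the lowest and the rest lay within the range of the normal embryos. The change of nkx2.2b was -0.15 ± 0.14 (SE; 95% interval -0.46 to 0.16; edgeR adjusted p = 0.736). An estimator that shares reads between similar transcripts may divide the paralogs unevenly, so their sum was taken as well, after the data had been seen. It was 22.8 ± 2.77 CPM in coloboma embryos and 24.4 ± 2.203 CPM in normal embryos (SD, n = 5 and 4; log2 change -0.11; two-sided exact permutation p = 0.317).

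The related nkx2.9, a further NK2 homeobox gene of the ventral midline region, had 6.89, 6.97, 8.97, 6.08 and 5.27 CPM in coloboma embryos 3, 4, 5, 6 and 7, against 8.21, 6.94, 7.45 and 7.48 CPM in normal embryos 3, 4, 6 and 7. As for nkx2.2a, coloboma embryo 5 was the highest of all, with coloboma embryos 6 and 7 the lowest. The log2 change was -0.15 ± 0.15 (SE; 95% interval -0.47 to 0.17; edgeR adjusted p = 0.744), with a two-sided p of 0.341 by exact permutation. Coloboma embryo 5 weighed on this gene and on nkx2.2a: without it the log2 changes were -0.26 and -0.16 (edgeR adjusted p = 0.331 and 0.475). Without coloboma embryo 7 the nkx2.9 change was -0.064, and without coloboma embryo 6 that of nkx2.2a was -0.020. With the level of skeletal muscle genes as a covariate both changed sign, to 0.13 for nkx2.9 and 0.18 for nkx2.2a (edgeR adjusted p = 0.876 and 0.755). With the normal mean set to 0, the mean log2 muscle level was 0.29 to 0.97 in coloboma and -0.36 to 0.42 in normal embryos. The covariate thus runs largely with the group, and the fit cannot cleanly separate them.

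The broadest of the 5 in its domain, nkx6.1, was at 42.6, 31.0, 32.2, 23.5 and 31.5 CPM in coloboma embryos 3, 4, 5, 6 and 7, against 32.8, 33.9, 41.1 and 26.3 CPM in normal embryos 3, 4, 6 and 7. Both the highest and the lowest embryo belonged to the coloboma group, numbers 3 and 6. The log2 change was -0.063 ± 0.16 (SE; 95% interval -0.42 to 0.30; edgeR adjusted p = 0.913), with a two-sided p of 0.675 by exact permutation. Without coloboma embryo 3, which stood apart in its lens genes, it was -0.18, and without normal embryo 6 or coloboma embryo 6 it turned to 0.045 and 0.033. With the muscle covariate it was -0.29. None of these passed.

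**Figure D2:**
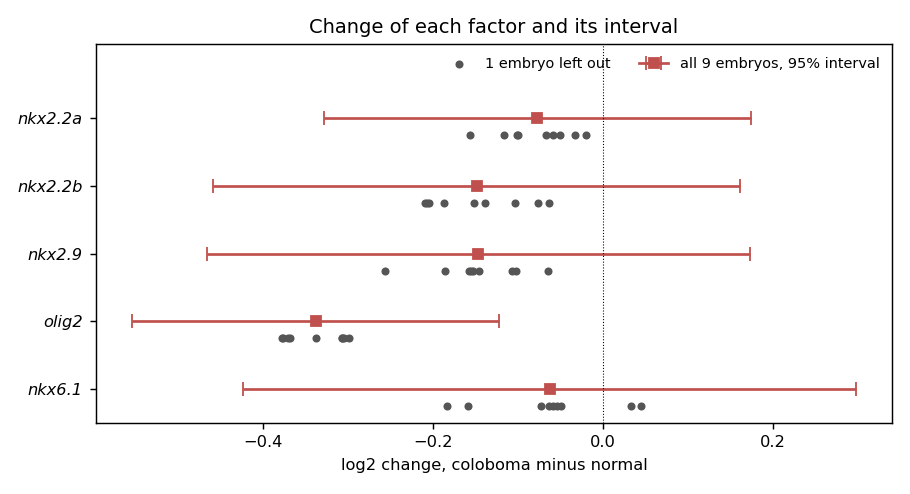
Log2 change (x axis, coloboma minus normal) of each of the 5 genes with its 95% interval from all 9 embryos (red squares and bars) and the values with 1 embryo left out at a time (grey points). The interval of olig2 lies below 0, from -0.55 to -0.12, before adjustment for the number of genes tested. The other 4 intervals include 0.

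Whether olig2 differed more between groups than the other 4 genes was asked with ratios inside each embryo, which do not depend on library scaling. On the log2 scale the nkx2.2a over olig2 ratio was 0.19 ± 0.29 in coloboma embryos and -0.07 ± 0.13 in normal embryos (SD, n = 5 and 4), a difference of 0.26 (two-sided exact permutation p = 0.127; 0.635 adjusted over the 10 ratios). The nkx2.2b over olig2 ratio differed by 0.19 (exact permutation p = 0.103; 0.635 adjusted), the nkx2.9 over olig2 ratio by 0.18 (exact p = 0.389; 0.863 adjusted) and the olig2 over nkx6.1 ratio by -0.27 (exact p = 0.206; 0.688 adjusted). The groups overlapped in each of these ratios. None of the 10 ratios passed after adjustment. Single embryos weighed on them: the nkx2.2a over olig2 difference was 0.35 without coloboma embryo 6 (exact permutation p = 0.0286, the smallest that 4 against 4 embryos allow; 0.286 adjusted over the 10 ratios) and 0.15 without coloboma embryo 5. That of nkx2.9 over olig2 was 0.045 without coloboma embryo 5. That of olig2 over nkx6.1 was -0.41 without coloboma embryo 6 and -0.17 without coloboma embryo 3. Among the 6 ratios that do not involve olig2, differences ran from -0.09 to 0.07.

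Per transcript length (TPM), nkx6.1 was the most abundant of the 5, at 24.1 ± 4.57 TPM over all 9 embryos (SD, n = 9), above 79.5% of the genes in the table. Next came nkx2.2a at 12.4 ± 1.53 TPM, olig2 at 12.2 ± 2.28, nkx2.9 at 9.28 ± 1.43 and nkx2.2b at 8.37 ± 1.34, which was above 55.8% of the genes. The step from nkx6.1 to nkx2.2a was 1.91-fold and was seen in 9 of 9 embryos (two-sided exact paired permutation p = 0.00391, the smallest that 9 embryos allow; 0.0156 adjusted over the 4 neighbour pairs). The step from olig2 to nkx2.9 was 1.31-fold, in 8 of 9 embryos (exact paired p = 0.00781; 0.0156 adjusted). That from nkx2.9 to nkx2.2b was 1.11-fold, in 7 of 9 (exact paired p = 0.0234; 0.0313 adjusted). In CPM, not per length, nkx2.9 was instead below nkx2.2b (log2 -0.35). The pairs were set by sorting these same means. A paired p measures how steady a step is between embryos, and does not cover an error in gene length that all embryos share. The genes nkx2.2a and olig2 did not differ beyond their spread (exact paired p = 0.734).

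Those neighbours stood in a different order in each group. In coloboma embryos nkx2.2a had the higher mean of the pair, 11.9 ± 1.65 TPM, with olig2 at 10.6 ± 1.13 (SD, n = 5). In normal embryos olig2 had the higher mean, 14.2 ± 1.64 TPM, with nkx2.2a at 13.2 ± 1.151 (SD, n = 4). Embryo by embryo, olig2 was above nkx2.2a in coloboma embryo 6 and in normal embryos 3, 4 and 6. The test of this ratio, given above in CPM, did not pass.

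**Figure D3:**
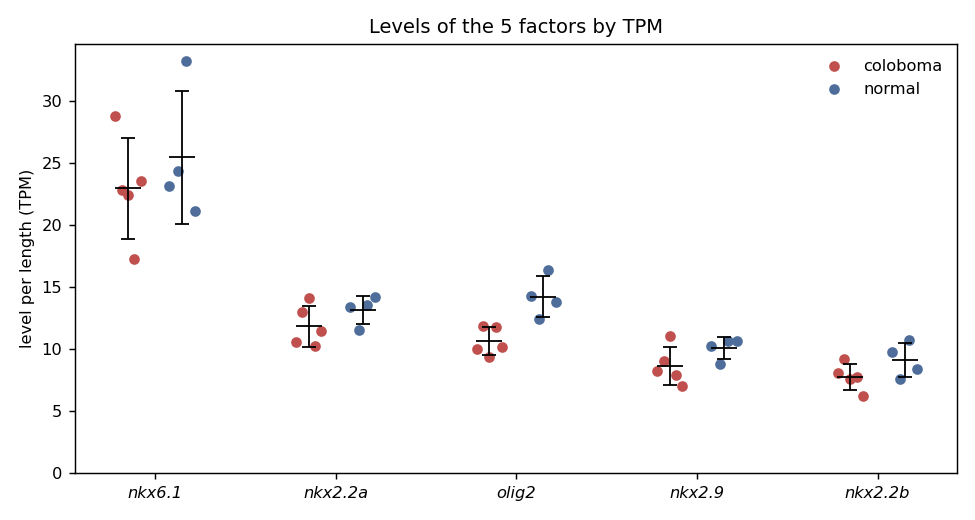
Levels per transcript length (TPM, y axis from 0) of the 5 genes, ordered by their mean over 9 embryos. Points are single embryos, coloboma left and normal right of each gene, with bars for the mean ± SD. The order is nkx6.1, nkx2.2a, olig2, nkx2.9, nkx2.2b. The means of nkx2.2a and olig2 trade places between the groups, while coloboma embryo 6 and normal embryo 7 go against their group.

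From embryo to embryo nkx2.2a and nkx2.9 went up and down together. Over 9 embryos Pearson's r of their log2 CPM was 0.86 (exact permutation p = 0.0037; 0.037 adjusted over the 10 pairs) and Spearman's rho 0.97 (exact permutation p = 0.000165; 0.00165 adjusted). Without coloboma embryos 5 and 6, the farthest from the median of nkx2.2a, r was 0.80, and after centring within each group it was 0.85. Leaving out any single embryo gave r from 0.79 to 0.95. The 2 genes lie on the same chromosome, and the embryo highest in both, coloboma embryo 5, was also the shallowest library. The part of depth in this relation was not tested. For comparison, 11764 genes with at least 5 CPM on average were taken. Clone-style names and names ending in a point and digits, such as nkx6.2, were left out, except for the 5 genes. Of the genes taken, 0.34% had a higher r with nkx2.2a than nkx2.9 had. Of the other 9 pairs none passed after adjustment by either measure. The largest r among them was 0.69, for nkx2.2b and olig2 (exact permutation p = 0.0376; 0.188 adjusted; rho 0.48, exact permutation p = 0.194), and it was 0.37 without coloboma embryo 7 and normal embryo 3.

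**Figure D4:**
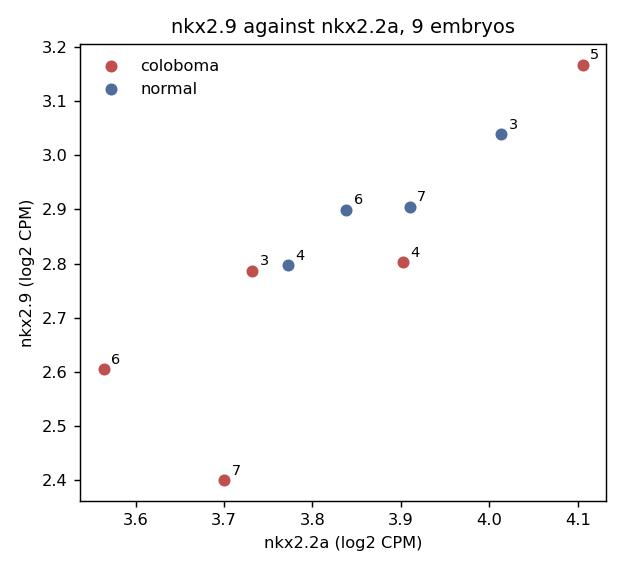
Level of nkx2.9 against that of nkx2.2a (both log2 CPM) in the 9 embryos, red for coloboma and blue for normal, with embryo numbers. The points follow a rising line (r = 0.86), with coloboma embryo 5 at the top and coloboma embryos 6 and 7 at the bottom.

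As a description of which genes followed each of the 5 most closely over the 9 embryos, the 3 highest correlations among those 11764 genes were taken for each. They were akirin1 (r = 0.96), tmem57b (0.96) and ZNF576 (1 of 2) (0.96) for olig2, and gab2 (0.97), the Hox gene hoxb3a (0.97) and the hindbrain neuron gene phox2bb (0.94) for nkx6.1. For nkx2.2a they were eea1 (0.95), vps18 (0.93) and ing3 (0.92), for nkx2.9 brd3a (0.94), stk17b (0.94) and st8sia2 (0.94), and for nkx2.2b CEP162 (0.92), tldc1 (0.90) and mul1b (0.90). Values this high are the extreme of 11764 genes compared over 9 points that share library scaling. None of these 15 genes passed the test between groups.

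The signal and its receptors did not pass the test either. The ligand gene shha averaged 43.4 ± 4.25 CPM in coloboma embryos and 40.1 ± 4.47 CPM in normal embryos (SD, n = 5 and 4; log2 change 0.11 ± 0.10, SE; edgeR adjusted p = 0.711). The receptor gene ptch1 (0.13 ± 0.15) and the transcription factor gene gli1 (0.05 ± 0.11), both induced by Hedgehog, also had small positive log2 values, neither past the test. In the whole pathway list 0 of 18 genes passed, and 13 had a positive value (median log2 change 0.06). Its smallest p belonged to the co-receptor gene gas1b (-0.32 ± 0.14; edgeR adjusted p = 0.428), followed by the transcription factor gene gli2a (0.16 ± 0.09) and the signal transducer gene smo (-0.13 ± 0.08). In the list set for the floor plate, 0 of 11 passed, and the median was 0.06. Its genes, among them fgf8a, are not restricted to the floor plate in a whole embryo. The gene fgf8a was at 0.17 ± 0.10, the forkhead gene foxa at 0.17 ± 0.12 and foxa2 at 0.06 ± 0.08.

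Close relatives of the 5 genes gave 0 of 9 past the threshold (median -0.21). The paralog nkx6.2, which shares part of the nkx6.1 domain, averaged 18.3 ± 3.35 CPM in coloboma embryos and 21.2 ± 1.56 CPM in normal embryos (SD, n = 5 and 4; edgeR adjusted p = 0.557). The dorsal family member olig4 had the smallest p of them, 14.5 ± 4.28 and 20.1 ± 4.02 CPM in the same order (log2 change -0.47 ± 0.20; edgeR adjusted p = 0.408). The forebrain genes nkx2.1 (-0.44 ± 0.28), nkx2.4a (-0.37 ± 0.40) and nkx2.4b (-0.69 ± 0.38) were on the negative side. The heart, pharynx and gut members nkx2.3 (0.21 ± 0.19), nkx2.5 (0.20 ± 0.30), nkx2.7 (0.36 ± 0.22) and nkx6.3 (0.24 ± 0.48) were on the positive side, none of them past the test.

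Of 10 genes listed for motor neurons, which the olig2 band makes, 0 passed and 6 had a negative value (median log2 change -0.04). In a whole embryo these genes are not restricted to motor neurons, and isl1 and mnx1 also stand in the list for the pancreas. The values therefore do not measure the output of the olig2 band. The motor neuron factor mnx1 averaged 3.74 ± 1.40 CPM in coloboma embryos and 3.33 ± 0.307 CPM in normal embryos, and isl1, of motor and sensory neurons, 31.9 ± 2.43 and 33.6 ± 2.98 CPM in the same order (SD, n = 5 and 4). The smallest p was that of mnx2a (-0.36 ± 0.16; edgeR adjusted p = 0.417), followed by isl2a (0.12 ± 0.11) and mnx2b (-0.18 ± 0.17). The V3 neuron factor sim1a, which also marks the hypothalamus, was at -0.18 ± 0.29. Among 14 ventral interneuron genes 0 passed and 11 were negative (median -0.26). The first were vsx1 (-0.47 ± 0.10; edgeR adjusted p = 0.129), a gene of V2 and retinal interneurons, lhx1a (-0.40 ± 0.11; 0.186) and lhx5 (-0.51 ± 0.15; 0.224). In vsx1 and lhx1a all coloboma embryos were below all normal embryos, as in 2.16% of all tested genes. Of 9 genes listed for the oligodendrocyte lineage, nkx2.2a included, 0 passed (median 0.01), with the myelin gene plp1a at -0.43 ± 0.15 (edgeR adjusted p = 0.283), mbpb at 0.18 ± 0.10 and sox9a at -0.19 ± 0.19. In whole embryos of this age these values cannot be assigned to that lineage, so they do not measure it.

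**Figure D5:**
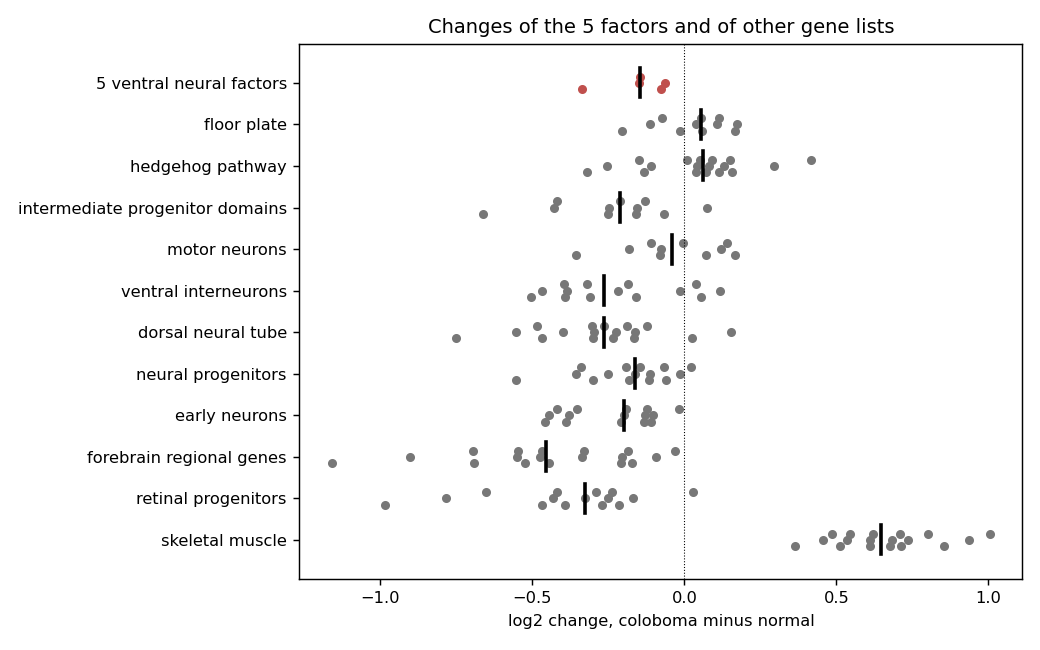
Log2 change (x axis, coloboma minus normal) of each gene in the 5 ventral neural factors (red) and in 11 other lists (grey), with a black bar at each list's median. The 5 factors have a median of -0.15, floor plate and hedgehog pathway genes one of 0.06, early neuron genes one of -0.20, and skeletal muscle genes one of 0.65.

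Negative values were also the rule in neural lists not chosen for the ventral bands, against 49.9% negative among all tested genes. These lists do not exclude ventral cells, since the progenitor and neuron lists are general and nkx6.2 stands in the intermediate list. Among 11 genes of the intermediate progenitor bands 0 passed and 10 were negative (median -0.21), led by prdm13 (-0.66 ± 0.21), dbx1a (-0.25 ± 0.08) and pax6b (-0.42 ± 0.23). Among 17 dorsal neural tube genes 0 passed and 15 were negative (median -0.26), led by pax7a (-0.40 ± 0.11), atoh1b (-0.75 ± 0.24) and msx3 (-0.30 ± 0.12). Of 15 general neural progenitor genes 0 passed and 14 were negative (median -0.16). First there were hes6 (38.8 ± 4.18 CPM in coloboma and 56.9 ± 11.1 CPM in normal embryos; SD, n = 5 and 4; edgeR adjusted p = 0.143), sox19a (-0.36 ± 0.09) and sox3 (-0.34 ± 0.13). Of 15 early neuron genes 0 passed and 15 were negative (median -0.20), led by the Notch ligand genes dla (181 ± 16.2 CPM in coloboma and 246 ± 20.6 CPM in normal embryos; edgeR adjusted p = 0.106) and dlb (-0.38 ± 0.09) and by stmn1b (-0.46 ± 0.13). In dla, dlb, sox19a and pax7a every coloboma embryo was below every normal embryo, as in olig2 and in 2.16% of all tested genes. Of all 124 genes in the neural and Hedgehog lists other than the 5, ventral lists included, 86 were negative and 0 passed with edgeR. Of them 23 had an unadjusted edgeR p under 0.05, each of them negative. Over all tested genes 11.7% had such a p, with 4.9% lower. With DESeq2 8 of the 124 passed, among 577 of all genes. Without coloboma embryo 5 edgeR passed 2 of the 124, dla and vsx1, among 235 of all genes.

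Set against the mean of the neural progenitor genes in the same embryo, the log2 level of olig2 was -2.65 ± 0.22 in coloboma embryos and -2.51 ± 0.05 in normal embryos (SD, n = 5 and 4). The difference was -0.14, and the groups overlapped (two-sided exact permutation p = 0.262). It was -0.061 without coloboma embryo 5 and -0.20 without coloboma embryo 6. The same difference was 0.11 for nkx2.2a, 0.05 for nkx2.2b, 0.04 for nkx2.9 and 0.13 for nkx6.1 (two-sided exact permutation p from 0.246 to 0.754). Against the early neuron genes it was -0.09 for olig2 and 0.09 to 0.18 for the other 4. Of the 5 genes olig2 alone was negative on both of these relative scales, and none passed on either.

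Lists of marker genes were also taken for other tissues of the embryo. Of 18 skeletal muscle genes 1 passed, the myosin heavy chain gene myhz1.2, which rose to 3749 ± 405 CPM in coloboma embryos, against 2152 ± 365 CPM in normal embryos (SD, n = 5 and 4; edgeR adjusted p = 0.0490). All 18 had positive values. Their summed level was 45398 to 72379 CPM in coloboma embryos and 28130 to 49793 CPM in normal embryos. Of 18 forebrain regional genes 0 passed and 18 were negative (median -0.46), led by lhx6 (-1.16 ± 0.21; edgeR adjusted p = 0.0595), dlx2a (-0.69 ± 0.16) and otpb (-0.55 ± 0.14), and their summed level was 167 to 290 CPM in coloboma embryos and 271 to 346 CPM in normal embryos. Of 15 retinal progenitor genes 0 passed and 14 were negative (median -0.33), led by vsx1, vax2 (-0.99 ± 0.26) and rx2 (-0.65 ± 0.24), with sums of 225 to 391 and 332 to 438 CPM in the same order. The sum of 225 CPM was that of coloboma embryo 3. In lhx6, dlx2a, dlx1a, vsx1 and vax2 every coloboma embryo was below every normal embryo, as in 2.16% of all tested genes. Of 12 lens genes 0 passed (median 0.26), with cryaa (-1.38 ± 0.61), foxe3 (0.38 ± 0.24) and prox1a (0.10 ± 0.12) first. Their summed level was 65.8 CPM in coloboma embryo 3 and 1068 to 1561 CPM in coloboma embryos 4 to 7. Normal embryos had 653 to 1206 CPM. The mean log2 level of the lens list differed by -0.47 between groups, opposite in sign to that median (two-sided exact permutation p = 0.984). For the pancreas, where nkx2.2a and nkx6.1 are also used, 0 of 12 endocrine genes passed (median -0.11), and their sum was 203 to 232 CPM in coloboma embryos and 197 to 287 CPM in normal embryos. The first of these genes were sst2 (0.43 ± 0.20), pax6b and ins (-0.47 ± 0.27). The largest part of the sum was insm1a, at 59.9 CPM in coloboma and 72.3 CPM in normal embryos, while ins had 5.79 and 7.87 CPM. Since isl1, mnx1, pax6b and arxa also stand in the neural lists, the sum does not measure the pancreas alone. The part of muscle, forebrain and retinal tissue in the values of the 5 genes was not tested beyond the scales above and the muscle covariate, which runs largely with the group.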

How the data were processed

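Libraries of single embryos were made from total RNA with a TruSeq RNA kit, per the labels' protocols. The deposited estimated counts (whole numbers, 1 per gene symbol and embryo) were taken as rounded RSEM values, since CASAVA 1.8.2, RSEM 1.2.18, Bowtie 1.1.1 and build Zv9 stand in the submitters' processing notes, with no annotation named. The deposited TPM by the authors served for levels between genes and as an alternative. Counts were rounded, filtered with filterByExpr (minimum count 10), scaled by TMM and tested with the edgeR 4.0.16 quasi-likelihood F test in R 4.3.3 over all genes, with Benjamini-Hochberg adjustment. Log2 CPM used a prior count of 0.5 and log2 TPM a pseudocount of 0.1. Intervals are at 95% and unadjusted. Exact permutation tests were run in Python 3.11.15 with SciPy 1.17.1.

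The 5 genes and the lists (210 of 218 entries matched a row) were chosen with earlier results of these data known. Named beyond the 5 were chosen pathway genes and relatives, the 3 smallest p of each list, and for each of the 5 the 3 most correlated genes. The values of 1 pathway gene are not reported here. Replicates are separate embryos, and no pair within a group had counts close enough to be 1 library deposited more than once (chi-square per degree of freedom over all genes 26.2 to 75.7). No batch is named. Alternatives (DESeq2 1.42.0, limma 3.58.1 voom, scaling, filters, TPM, block, covariate, left-out embryos) are given at the end. No protein or promoter sequence was used here. Without strand, overlapping genes cannot be told apart.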

Additional observations from a re-analysis of the deposited data

How the results depend on the processing

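None of the 5 genes passed an adjusted p of 0.05 in any of the 23 alternatives. Among these, the 8 embryos without replicate block are the same fit as that without coloboma embryo 5. The olig2 change stayed negative in each, from -0.42 (library size alone) to -0.30 (without coloboma embryos 3 and 5, chosen after seeing the data), with adjusted p from 0.0664 (DESeq2) to 0.563 (muscle covariate). With library size alone the median change of all tested genes was itself -0.08, against 0.00075 in the main fit. The nkx2.2b change also stayed negative. With the muscle covariate nkx2.2a reversed to 0.18 and nkx2.9 to 0.13. Leaving out 1 embryo at a time, nkx6.1 ran from -0.18 to 0.045. The causes of these shifts were not tested.

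Counts over all genes moved more than the 5 genes did. Against 44 (17 higher, 27 lower), there were 577 with DESeq2 (365 and 212), 5 with the muscle covariate (1 and 4), and 21 to 235 with 1 embryo left out (higher 8 to 165, lower 11 to 70). Only 10 were higher on log2(TPM + 0.1), and 32 without coloboma embryos 3 and 5. Deviations of same-numbered embryos had r from -0.07 to 0.05, within the -0.16 to 0.14 of differently numbered ones. So few pairs cannot exclude that the numbers stand for a pairing. With the replicate block, on 8 embryos, 18 passed (10 and 8), against 235 without it on the same 8 (165 and 70), and the olig2 change was -0.31 under the replicate block. Of the other neural and Hedgehog list genes, 0 passed, 8 with DESeq2, and 0 to 2 with 1 embryo left out, the 2 being in those 8 embryos without block.

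With 1 embryo left out, small log2 differences of ratios reversed: nkx2.2a over nkx2.2b -0.0046 to 0.14, nkx2.2a over nkx6.1 -0.13 to 0.11, nkx2.2b over nkx2.9 -0.052 to 0.11, nkx2.2b over nkx6.1 -0.18 to 0.011, and nkx2.9 over nkx6.1 -0.20 to 0.020. Those with olig2 kept their sign: nkx2.2a over olig2 0.15 to 0.35, nkx2.2b over olig2 0.15 to 0.25, nkx2.9 over olig2 0.045 to 0.25, and olig2 over nkx6.1 -0.41 to -0.17. These ratios share the same olig2 values, so their signs are not separate observations, and none passed after adjustment. Relative to neural progenitors olig2 ran from -0.20 to -0.061, nkx2.2a from 0.041 (without normal embryo 6) to 0.16, nkx6.1 from 0.019 (without coloboma embryo 3) to 0.21, nkx2.2b from -0.0077 to 0.13 and nkx2.9 from -0.023 to 0.11. In the order of levels, nkx2.2a over olig2 ran from -0.033 to 0.073. In CPM, not per length, olig2 over nkx2.9 was 0.94 and nkx2.9 over nkx2.2b reversed to -0.35, which follows from gene length. The part of depth in the spread of the 5 genes was not tested, and their SE of 0.10 to 0.16 leaves small changes undetected.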
